A study of Mus musculus with 6 samples.

Results

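Transcripts of 8 genes of the TNF system were followed in cultured mouse microglia: the ligand genes Tnf, Tnfsf4, Tnfsf9, Tnfsf10 and Tnfsf13b and the receptor genes Tnfrsf1a, Tnfrsf1b and Fas. They were chosen by name, matched through their Entrez identifiers to mouse symbols, and are 8 of the 36528 genes in the deposited tables. Polyadenylated RNA was sequenced from 3 groups of 2 libraries each. The Cop1 KO microglia, which the labels call Loxp_untreated, are labelled as knockouts of the ubiquitin ligase gene Cop1 and received no treatment. The WT_LPS microglia are wild type and were treated with LPS, the bacterial lipopolysaccharide that activates Toll-like receptor signalling. The WT_untreated microglia are wild type without treatment and serve as the controls of both. The labels name brain as the tissue and give no Cre driver, LPS dose, treatment time, age or strain, and no Cop1 KO library was treated with LPS. Nothing in the labels says that libraries of a group came from separate cultures or animals, so each p-value speaks only of the spread among these libraries, and that spread may be technical. In build GRCm38.p6 the ligand genes lie at chr17:35199367-35202007 (Tnf), chr1:161395438-161418206 (Tnfsf4), chr17:57105287-57107758 (Tnfsf9), chr3:27317077-27339665 (Tnfsf10) and chr8:10006229-10036000 (Tnfsf13b). The receptor genes lie at chr6:125349723-125362483 (Tnfrsf1a), chr4:145212368-145246870 (Tnfrsf1b) and chr19:34290647-34327775 (Fas).

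TNF superfamily ligands are trimeric proteins, mostly made at the cell surface, that cluster their receptors. TNF is released from the membrane by the protease ADAM17 and binds TNFR1, encoded by Tnfrsf1a, which carries a death domain and is found on most cells, and TNFR2, encoded by Tnfrsf1b, which lacks a death domain and is typical of immune cells. Ligand-bound TNFR1 assembles a ubiquitin-based signalling complex that activates NF-kB, and can pass on to a second complex that drives caspase-dependent or necroptotic death; Fas recruits the death machinery directly. In microglia, TNF is one of the classic cytokines made after LPS. Tnf mRNA is short-lived because AU-rich repeats in its 3′ untranslated region recruit decay factors.

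The promoters of 4 of the genes are given so that the letters in front of their start sites can be compared: Tnf and Tnfsf10, with folds above 100 after LPS, Tnfsf13b, with opposite signs in the knockout and after LPS, and Tnfrsf1b, the receptor gene with an ISRE core. Of the 8 genes, 6 matched the RefSeq promoter table of build GRCm38.p6, and the 250 bases before the start site were searched on both strands for 5 motifs. Capitals mark every match: the C/EBP core TTNNGNAA and the TATA box TATAAA in Tnf, the AP-1 motif TGANTCA, the C/EBP core and the interferon-response (ISRE) core, which is GAAA, any 2 bases and GAAA, in Tnfsf13b, and the ISRE core on the opposite strand in Tnfrsf1b. The windows are chr17:35202008-35202257 (minus strand) for Tnf, chr3:27316827-27317076 (plus strand) for Tnfsf10, chr8:10006383-10006632 (plus strand) for the second start site of Tnfsf13b, and chr4:145246871-145247120 (minus strand) for Tnfrsf1b.
Tnf: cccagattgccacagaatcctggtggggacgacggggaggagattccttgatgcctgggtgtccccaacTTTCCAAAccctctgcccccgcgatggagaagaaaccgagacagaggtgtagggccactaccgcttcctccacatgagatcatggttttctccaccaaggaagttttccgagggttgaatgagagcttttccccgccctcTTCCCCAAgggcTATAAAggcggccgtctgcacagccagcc
Tnfsf10: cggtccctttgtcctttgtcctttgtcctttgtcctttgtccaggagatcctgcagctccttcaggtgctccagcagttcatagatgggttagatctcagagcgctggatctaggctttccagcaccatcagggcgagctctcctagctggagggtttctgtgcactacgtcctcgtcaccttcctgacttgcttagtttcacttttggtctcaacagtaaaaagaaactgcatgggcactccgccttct
Tnfsf13b: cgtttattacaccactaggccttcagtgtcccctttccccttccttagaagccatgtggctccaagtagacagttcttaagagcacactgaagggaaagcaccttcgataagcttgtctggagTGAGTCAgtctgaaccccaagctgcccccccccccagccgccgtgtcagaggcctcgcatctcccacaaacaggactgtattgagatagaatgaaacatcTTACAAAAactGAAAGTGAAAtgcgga
Tnfrsf1b: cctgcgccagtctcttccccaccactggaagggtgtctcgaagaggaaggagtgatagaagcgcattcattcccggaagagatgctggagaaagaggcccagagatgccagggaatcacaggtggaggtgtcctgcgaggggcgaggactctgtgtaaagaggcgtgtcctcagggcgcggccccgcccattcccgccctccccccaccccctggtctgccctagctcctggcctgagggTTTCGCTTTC

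In the Tnf promoter the TATA box lay 29 to 24 bases before the start, and C/EBP cores lay at 41 to 34 and 181 to 174 bases on the strand opposite to the gene. The ISRE core ended 7 bases before the second Tnfsf13b start and directly at the Tnfrsf1b start, where it spanned 10 to 1 bases before it. Fas held 1 AP-1 motif at 211 to 205 bases, and none of the 5 motifs was found in the windows of Tnfsf10, Tnfrsf1a or the other Tnfsf13b start. The NF-kB consensus was found in none of the windows of these 6 genes. Among all 32851 promoters of the table, 36.8% held the C/EBP core, 12.4% the TATA box, 9.55% the NF-kB consensus, 6.75% AP-1 and 2.98% the ISRE core. A match describes letters in a window and not binding.

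The AU-rich repeat of the Tnf 3′ untranslated region was read from the GENCODE annotation of build GRCm38. That region, 764 bases long, held 5 copies of the nonamer TTATTTATT and 8 copies of ATTTA. Of 2662 genes with untranslated regions of similar length, 3.64% held at least 1 nonamer and 2, Tnf included, held 5 or more. Of the other 7 genes, only Tnfsf13b had a nonamer, 1 copy in 3631 bases. A 30-base window of the Tnf repeat with 4 overlapping nonamers, in capitals, lies at chr17:35199681-35199710 on the minus strand.
Tnf AU-rich window: ttaTTATTTATTATTTATTTATTATTTATT

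The libraries held between 20568144 and 22553708 counted reads, and 15585 genes passed the filter on low counts and were tested together. Replicate libraries differed by more than sampling noise but little in all, with a biological coefficient of variation of 2.7%. Cop1 itself had 8.06 and 9.22 CPM (counts scaled to the effective library size) in Cop1 KO, 23.4 and 27.2 CPM in WT_LPS, and 12.7 and 11.5 CPM in WT_untreated libraries, so it was 28.6% lower in the knockout (edgeR quasi-likelihood test with Benjamini-Hochberg adjustment over all genes tested, adjusted p = 0.00016). Counts over the whole gene cannot show whether or which exons were lost, or in what share of the cells, so the extent of the knockout was not tested. All 10 microglia markers were present in every group, and their summed level was 3550 to 3590 normalised RPKM in Cop1 KO, 1640 to 1720 in WT_LPS and 2130 to 2170 in WT_untreated libraries. Summed astrocyte markers, among them Gfap and Clu, were at 9.32 to 10.3 normalised RPKM in Cop1 KO, 158 to 159 in WT_LPS and 125 to 126 in WT_untreated libraries, with Gjb6 at 0 throughout. Neuronal markers summed to 0.848 to 0.899 normalised RPKM in Cop1 KO, 26.1 to 26.7 in WT_LPS and 18.2 to 18.6 in WT_untreated libraries, with Nefl at 0 in the knockout. Oligodendrocyte lineage markers summed to 16 to 16.1 normalised RPKM in Cop1 KO, 39 to 41.3 in WT_LPS and 44.4 to 45.1 in WT_untreated libraries. Within that sum Mbp was higher in Cop1 KO than in WT_untreated libraries, at 9.92 against 6.26 normalised RPKM. Olig1 was lower, at 1.78 against 23.7, and 6 of 8 tested markers of the list were lower (median log2 fold change -2.27). Fibroblast markers summed to 17.9 to 18.3 normalised RPKM in Cop1 KO, 9.89 to 9.9 in WT_LPS and 8.03 to 8.39 in WT_untreated libraries. Of 5 fibroblast markers tested, 4 were higher in the knockout than in WT_untreated libraries. The 1 lower was Pdgfra, also on the oligodendrocyte lineage list, with a log2 fold change of -5.03. Endothelial and mural markers summed to 16.2 to 16.4 normalised RPKM in Cop1 KO, 23.9 to 24.1 in WT_LPS and 12.8 to 12.9 in WT_untreated libraries, with Cldn5 at 0 in all 6. Dendritic cell and monocyte markers summed to 0.366 to 0.477 normalised RPKM in Cop1 KO, 4.46 to 5.68 in WT_LPS and 0.585 to 0.597 in WT_untreated libraries, with Ly6c2 and Cd209a at 0 in all 6. Lymphocyte markers summed to 1.71 to 1.99 normalised RPKM in Cop1 KO, 1.73 to 1.8 in WT_LPS and 2.83 to 3.07 in WT_untreated libraries. Of these, Cd3e, Cd3g and Ncr1 were at 0 in all 6 libraries, while Cd4 had 355 counts over the Cop1 KO pair, 257 over the WT_LPS pair and 734 over the WT_untreated pair. In bulk RNA of this kind, fewer cells of a type and less RNA per cell cannot be told apart.

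All 7 of the genes with measurable transcripts in untreated cells, Tnf, Tnfsf9, Tnfsf10, Tnfsf13b, Tnfrsf1a, Tnfrsf1b and Fas, were higher in Cop1 KO than in WT_untreated microglia, by 1.3-fold to 2.05-fold. Of all 15585 genes tested, 58.4% passed the threshold of an adjusted p of 0.05 in this comparison with 28.1% called higher and 30.3% lower, so passing alone says little about any gene. Of the calls, 48.1% were higher, against 24.4% with library size only, 62.9% with the authors' scaling and 5.94% with microglia markers held equal. The median log2 fold change of the 7 measurable genes was 0.88, against -0.01 over all genes. Tnfsf4 passed the filter only through the LPS libraries. The difference between Cop1 KO and WT_untreated sets untreated knockout and wild-type libraries side by side. These libraries also differed in astrocyte, neuronal and other markers, so genotype and culture composition cannot be told apart.

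Tnf, the founding ligand of the family, had 37.3 and 36.3 CPM in Cop1 KO libraries, against 18.3 and 18.8 CPM in WT_untreated libraries. The groups did not overlap, and the knockout was 1.98-fold higher (log2 fold change 0.99, SE 0.05, edgeR adjusted p = 4.2e-23). Tnfsf10 encodes TRAIL, a ligand of death receptors. It was scarce, with 4.82 and 4.19 CPM in Cop1 KO libraries and 2.34 and 2.05 CPM in WT_untreated libraries, a log2 fold change of 1.04 (SE 0.16, edgeR adjusted p = 1.9e-07). Tnfsf13b, which encodes the B cell survival factor BAFF, had 7.88 and 8.52 CPM in Cop1 KO libraries, against 4.16 and 4.51 CPM in WT_untreated libraries. Its log2 fold change was 0.92 (SE 0.15, edgeR adjusted p = 2.8e-07). Tnfsf9, the ligand of the T cell costimulatory receptor 4-1BB, had 7.07 and 8.6 CPM in Cop1 KO libraries and 4.12 and 4.36 CPM in WT_untreated libraries, with a log2 fold change of 0.88 (SE 0.14, edgeR adjusted p = 1.6e-07). Of its exonic bases, 14.9% overlap the gene Gm11110 on the opposite strand, and the library kit does not keep the strand. Tnfsf4, which encodes OX40 ligand, had 1 count in each Cop1 KO library and 0 in both WT_untreated libraries, too few for a fold (edgeR adjusted p = 0.13).

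All 3 receptor genes were higher in the knockout, although Tnfrsf1a turned and Fas no longer passed when the microglia markers were held equal. Tnfrsf1b had 1220 CPM in each Cop1 KO library, against 729 and 728 CPM in WT_untreated libraries, and was 1.67-fold higher (log2 fold change 0.74, SE 0.03, edgeR adjusted p = 1.4e-30). Tnfrsf1a had 209 and 196 CPM in Cop1 KO libraries and 154 and 156 CPM in WT_untreated libraries, 1.3-fold higher (log2 fold change 0.38, SE 0.04, edgeR adjusted p = 3.3e-13). The ratio of the 2 receptors in normalised RPKM was 2.55 and 2.73 in Cop1 KO libraries, against 2.07 and 2.05 in WT_untreated libraries. Fas, the receptor of Fas ligand, had 6.26 and 5.87 CPM in Cop1 KO libraries and 3.85 and 3.24 CPM in WT_untreated libraries (log2 fold change 0.78, SE 0.14, edgeR adjusted p = 5.9e-06). For all 3 receptors every knockout library lay above every untreated wild-type library, but how many of all genes tested did the same was not counted.

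**Figure D1:**
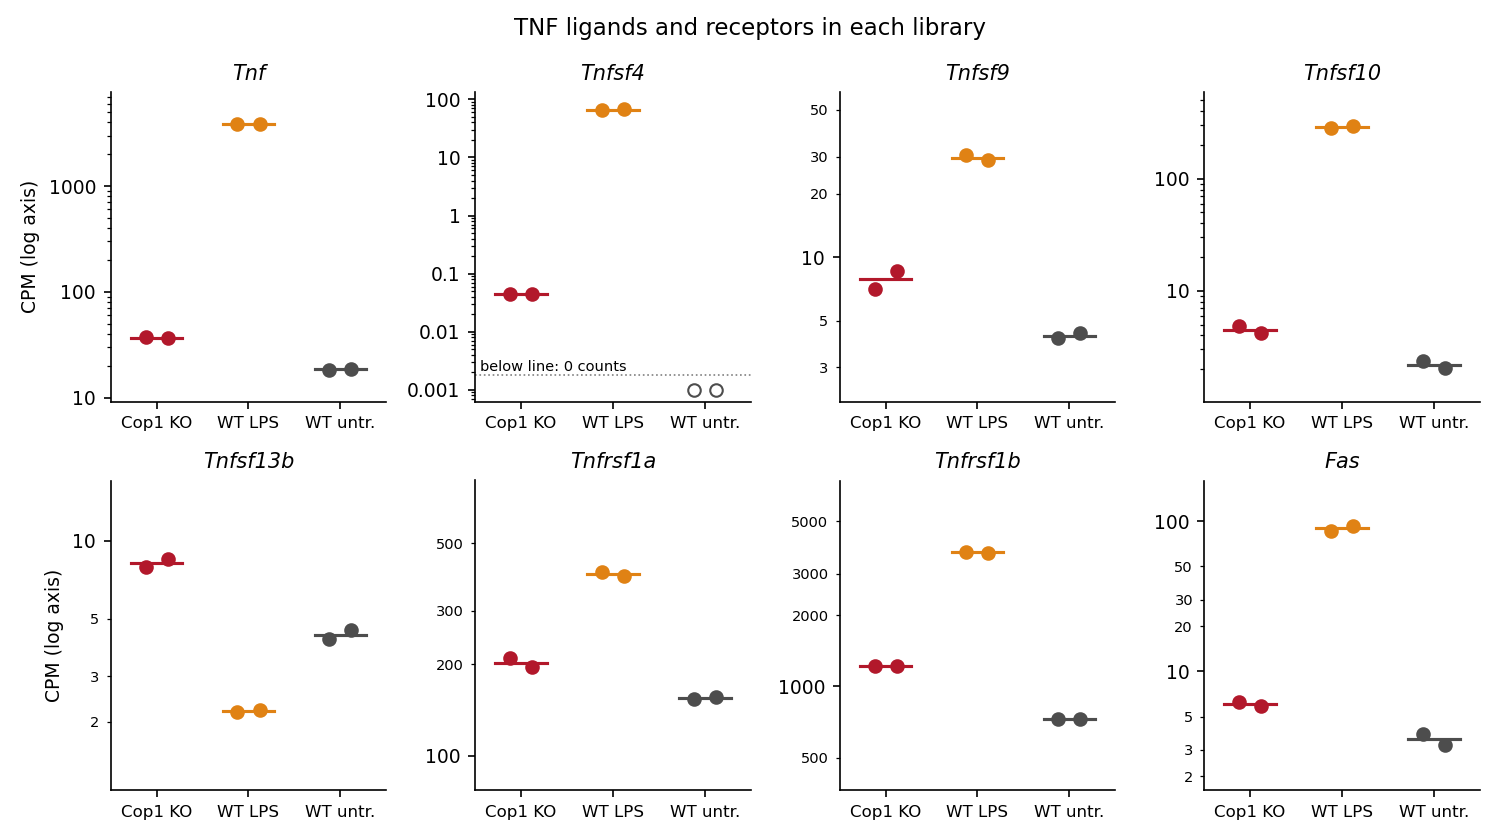
CPM of each gene in each library, on a log axis in each panel, with points for libraries and bars for the mean of the 2 libraries; open points mark 0 counts. The 2 libraries of a group lie close together, and WT_LPS is highest for every gene except Tnfsf13b, for which it is lowest at 2.18 and 2.23 CPM.

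Most microglia markers moved the same way in this comparison as the TNF genes. Of the 10, 8 were higher in Cop1 KO than in WT_untreated libraries and none was lower. The log2 fold changes of the 10 had a median of 0.54. They ran from 0.14 for P2ry12 and Tmem119, which did not pass, to 0.89 for Csf1r and Cx3cr1. Other lists rose too: of 5 fibroblast markers tested 4 were higher and 1 lower (median 1.26). Of 5 endothelial and mural markers tested, 3 were higher and 1 lower (median 0.87). In the astrocyte list 9 of 10 tested genes were lower (median -4.22), and in the neuronal list 9 of 9 (median -4.08). The oligodendrocyte lineage list had 6 of 8 tested genes lower and 1 higher (median -2.27). With the libraries scaled so that the geometric mean of the 10 microglia markers was equal, a choice made after seeing the data, the log2 fold change fell to 0.46 for Tnf, 0.51 for Tnfsf10, 0.38 for Tnfsf13b, 0.35 for Tnfsf9 and 0.21 for Tnfrsf1b, all still past the threshold. Under that scaling Fas had 0.24 (edgeR adjusted p = 0.12) and Tnfrsf1a turned to -0.15 (edgeR adjusted p = 0.0027), while the median over all genes was -0.54. Across all alternatives run, these were the highest edgeR adjusted p of Fas, 0.12, and of Tnfrsf1a, 0.0027. For Tnfrsf1a that value belongs to a change below 0 and not to a rise. The part of the cells of these marker lists in these changes was not tested.

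**Figure D2:**
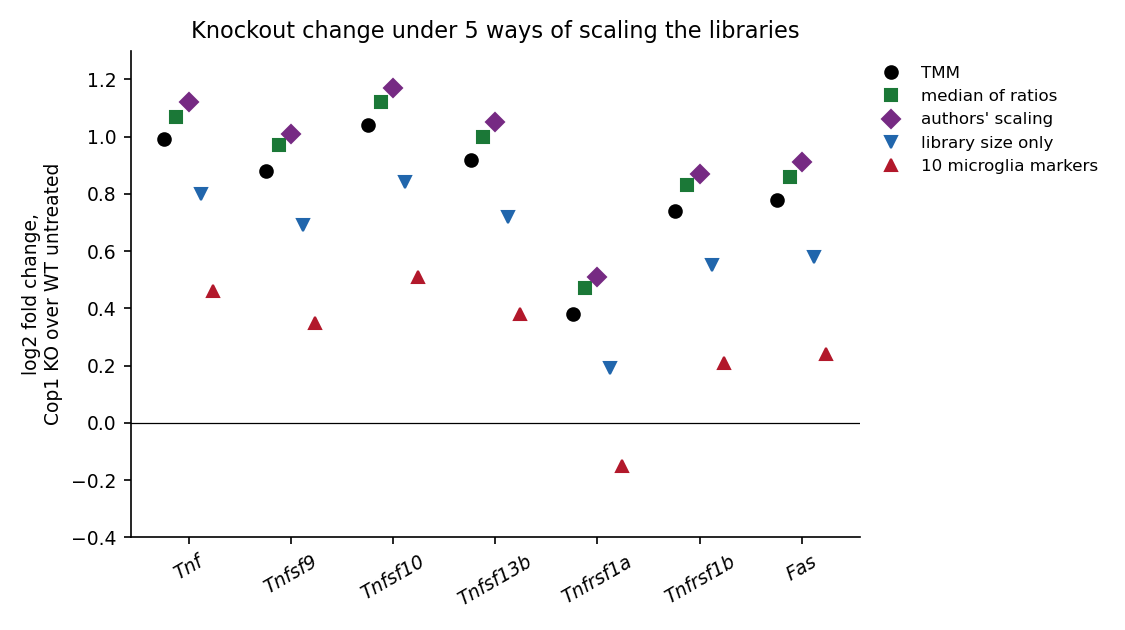
Log2 fold change of Cop1 KO over WT_untreated for the 7 measurable genes under 5 ways of scaling the libraries, each marker shape standing for 1 scaling. All values are above 0 except that of Tnfrsf1a when the microglia markers are held equal, at -0.15.

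Of the 7 genes with measurable transcripts in untreated cells, 6 were higher in WT_LPS than in WT_untreated microglia, by 2.55-fold to 207-fold, and 1, Tnfsf13b, was lower. Tnfsf4 had no reads in WT_untreated libraries and entered the test through its WT_LPS reads, so it is described by its counts and left out of that tally. Over all genes tested, 73.7% passed, 30.2% were called higher and 43.4% lower, and the median log2 fold change was -0.18. Of the calls, 41.1% were higher, against 19.9% with library size only and 50.9% with the authors' scaling. In this comparison 185 genes (1.19% of those tested) were called at least 100-fold higher, and Tnf and Tnfsf10 were among them.

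Tnf had 3870 and 3820 CPM in WT_LPS libraries, against 18.3 and 18.8 CPM in WT_untreated libraries, a 207-fold difference (log2 fold change 7.70, SE 0.05, edgeR adjusted p = 2.2e-70). Tnf mRNA made up 0.312% and 0.308% of all counted reads in the WT_LPS libraries and 0.00218% and 0.00223% in the WT_untreated libraries. Tnfsf4 had 1151 and 1108 counts in WT_LPS libraries and none in WT_untreated libraries. Taking 3 counts over the untreated pair as the floor, it was at least 1140-fold higher, with a lower 95% limit of 1090-fold that covers counting error only. Tnfsf10 had 283 and 297 CPM in WT_LPS libraries, against 2.34 and 2.05 CPM in WT_untreated libraries, 132-fold higher (log2 fold change 7.05, SE 0.13, edgeR adjusted p = 3.4e-56). Tnfsf9 rose less, to 30.4 and 29 CPM in WT_LPS libraries, against 4.12 and 4.36 CPM in WT_untreated libraries (log2 fold change 2.80, SE 0.12, edgeR adjusted p = 3.8e-29). Tnfsf13b had 2.18 and 2.23 CPM in WT_LPS libraries and 4.16 and 4.51 CPM in WT_untreated libraries, 1.97-fold lower (log2 fold change -0.98, SE 0.21, edgeR adjusted p = 2.3e-05), and on log2(normalised RPKM + 1) the change was -0.36. Of the 5 ligand genes, Tnfsf13b was the one that the knockout and LPS moved in opposite directions.

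The 3 receptor genes were all higher after LPS. Fas had 86.5 and 93.3 CPM in WT_LPS libraries, against 3.85 and 3.24 CPM in WT_untreated libraries, 25.4-fold higher (log2 fold change 4.67, SE 0.12, edgeR adjusted p = 1.5e-43). Tnfrsf1b had 3710 and 3660 CPM in WT_LPS libraries and 729 and 728 CPM in WT_untreated libraries, 5.05-fold higher (log2 fold change 2.34, SE 0.03, edgeR adjusted p = 2.6e-54). Tnfrsf1a had 403 and 390 CPM in WT_LPS libraries and 154 and 156 CPM in WT_untreated libraries, 2.55-fold higher (log2 fold change 1.35, SE 0.04, edgeR adjusted p = 3.4e-37). The ratio of Tnfrsf1b to Tnfrsf1a in normalised RPKM was 4.04 and 4.12 in WT_LPS libraries, against 2.07 and 2.05 in WT_untreated libraries. Microglia markers were mixed after LPS: 3 of 10 were higher and 6 lower (median -0.47), from -3.97 for Cx3cr1 to 1.23 for Aif1 on the log2 scale. Astrocyte and neuronal markers had median log2 fold changes of 0.17 and -0.12 after LPS. Of 5 endothelial and mural markers tested, 4 were higher and 1 lower after LPS (median 2.32), from -1.14 for Vwf to 4.33 for Pdgfrb. Of 4 dendritic cell and monocyte markers tested, 2 were higher and 1 lower (median 1.96), with Xcr1 at 6.76 (SE 0.48), Clec9a at 4.13 (SE 0.41) and Ccr2 at -0.95 (SE 0.32). The part of these markers' cells in the LPS changes was not tested.

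**Figure D3:**
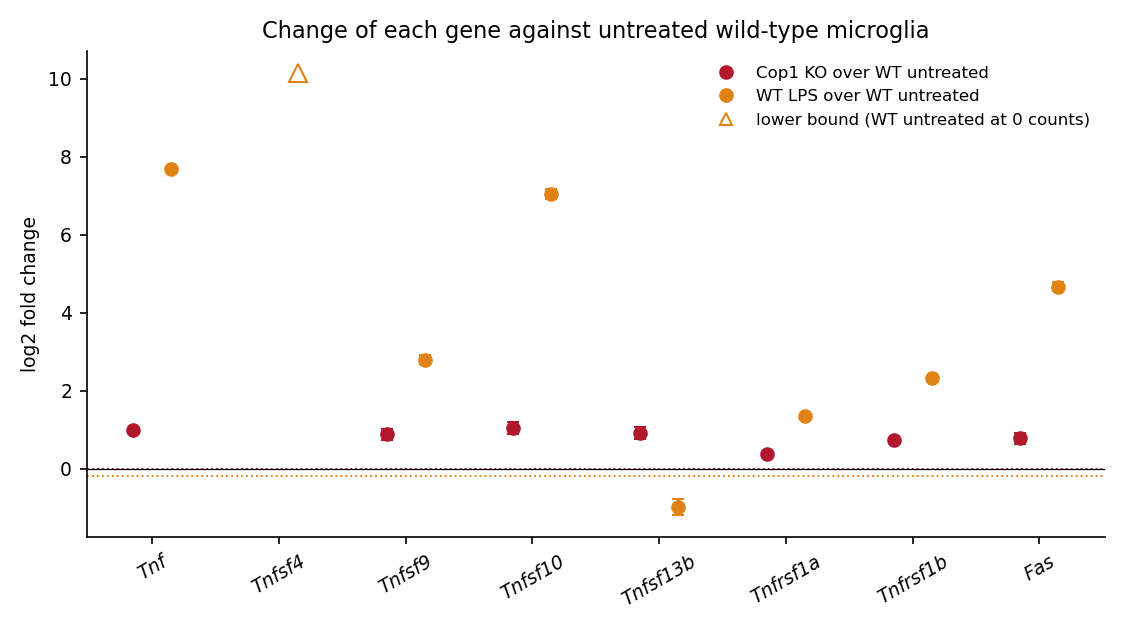
Log2 fold change with its standard error for each gene, Cop1 KO over WT_untreated and WT_LPS over WT_untreated; dotted lines mark the median of all genes, and the open triangle is a lower bound for Tnfsf4, which has no value for the knockout because both groups were at or under 3 counts. The knockout values lie between 0.38 and 1.04, while the LPS values run from -0.98 for Tnfsf13b to 7.70 for Tnf and the bound for Tnfsf4.

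Set directly against each other, Cop1 KO and WT_LPS microglia differed in all 7 genes with measurable transcripts in untreated cells, where 79.6% of all genes tested differed and 39.6% were called lower in the knockout. Of the calls, 50.2% were higher, against 64.5% with library size only. This contrast is also the test of whether the knockout and LPS changes differ, since both share the WT_untreated controls. Cop1 KO was lower than WT_LPS, with a log2 fold change of -6.71 for Tnf (SE 0.04, edgeR adjusted p = 6e-69), -6.01 for Tnfsf10 (SE 0.10) and -3.89 for Fas (SE 0.10). Differences were smaller for Tnfsf9 at -1.92 (SE 0.11), Tnfrsf1b at -1.60 (SE 0.03) and Tnfrsf1a at -0.97 (SE 0.04), and the edgeR adjusted p of these 6 genes was 1.7e-23 or smaller. For Tnfsf4, 2 counts over the Cop1 KO pair stood against 2259 over the WT_LPS pair, a ratio of 1470 (95% counting interval 407 to 12200). Tnfsf13b alone was higher in Cop1 KO than in WT_LPS microglia, 3.71-fold (log2 fold change 1.89, SE 0.20, edgeR adjusted p = 1.4e-13; 39.9% of all genes were called higher).

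Per kilobase of transcript, the ligand that led the family differed between groups. In Cop1 KO libraries the highest of 18 ligand genes was Tnfsf12, the TWEAK gene, at 51.2 normalised RPKM (50 and 52.5 in its libraries), followed by Tnf at 16.5 and Tnfsf13, the APRIL gene, at 10.8. In WT_LPS libraries Tnf led at 1760, followed by Tnfsf15 at 50.5, Tnfsf10 at 44.5 and Tnfsf4 at 30.9, and then by Tnfsf9 and Tnfsf12, whose libraries overlapped at 15.1 to 17 normalised RPKM. In WT_untreated libraries the order was Tnfsf12 at 45, Tnfsf13 at 8.27 and Tnf at 7.59, with no overlap between libraries of neighbouring genes. Tnf made up 19.0% and 18.9% of summed ligand normalised RPKM in Cop1 KO libraries, 91.2% and 90.8% in WT_LPS libraries and 11.7% in each WT_untreated library. Among all genes Tnf ranked at 2641 and 2708 in Cop1 KO libraries, at 20 in both WT_LPS libraries, and at 4767 and 4660 in WT_untreated libraries. Tnfsf13b was in place 5 of the ligands in Cop1 KO and WT_untreated libraries and in place 12 in WT_LPS libraries, where its libraries overlapped those of Ltb in place 11.

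Tnfrsf1b and Tnfrsf1a were the 2 highest of 28 receptor genes in both untreated groups. Tnfrsf1b stood at 184 normalised RPKM in Cop1 KO, 569 in WT_LPS and 100 in WT_untreated libraries. Tnfrsf1a stood at 69.6 normalised RPKM in Cop1 KO, 140 in WT_LPS and 48.8 in WT_untreated libraries. In WT_LPS libraries Cd40, the receptor of CD40 ligand, passed both at 1060 normalised RPKM, and Fas moved up to place 4 at 37.9, against 2.49 and place 12 in Cop1 KO and 1.33 and place 13 in WT_untreated libraries. Place 13 was not firm, since the WT_untreated libraries of Fas overlapped those of Ngfr in place 12. Summed over the pair, Tnfrsf1a and Tnfrsf1b transcripts outnumbered Tnf in the untreated groups: the ratio of Tnf to both receptors was 0.0654 and 0.0648 in Cop1 KO libraries and 0.0502 and 0.0515 in WT_untreated libraries. In WT_LPS libraries that ratio was 2.49 and 2.5.

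**Figure D4:**
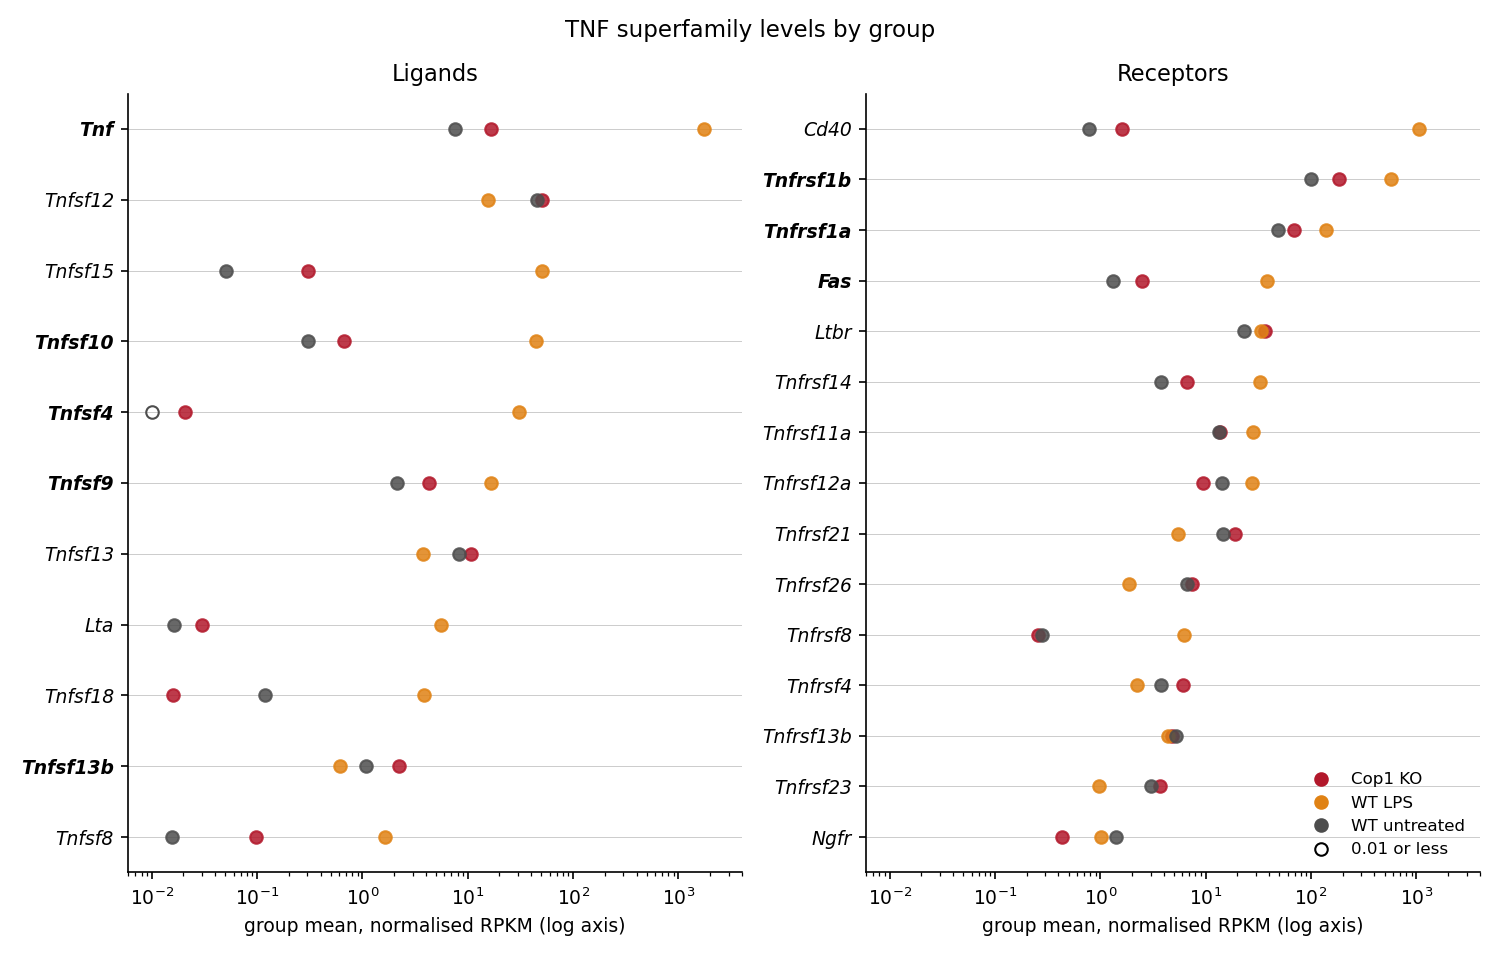
Group means in normalised RPKM, on a log axis, for the TNF superfamily genes that reached 1 in at least 1 group; bold names are the genes chosen for this account, and open points lie at 0.01 or below. Tnf leads the ligands at 1760 in WT_LPS libraries, and Tnfrsf1b leads the receptors in Cop1 KO and WT_untreated libraries at 184 and 100.

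Several of the genes sit beside relatives, and the neighbours did not always follow them. Lta, the lymphotoxin-alpha gene 1158 bases from Tnf, had 419 counts over the WT_LPS pair and 2 over the WT_untreated pair, a ratio of 316 (95% counting interval 87.0 to 2620), with 3 over the Cop1 KO pair. Ltb, 3062 bases away on the other side, had a log2 fold change of 0.13 in the knockout (SE 0.55, edgeR adjusted p = 0.86) and 1.29 after LPS (SE 0.49, edgeR adjusted p = 0.015). Tnfsf18, the GITR ligand gene 76451 bases from Tnfsf4, had a log2 fold change of 4.81 after LPS (SE 0.36) and was 8.19-fold lower in the knockout by counts of 2 against 19 (95% counting interval 1.98 to 72.5), and Fasl in the same region had 1 count in 1 WT_untreated library and 0 in the other 5. Tnfrsf8, 20262 bases from Tnfrsf1b, rose after LPS by 4.30 (SE 0.18) and had -0.26 in the knockout (SE 0.26, edgeR adjusted p = 0.39). Ltbr, the lymphotoxin-beta receptor gene 35838 bases from Tnfrsf1a, had 0.53 in the knockout and 0.36 after LPS (SE 0.05 each), but 0.00 in the knockout with microglia markers held equal and -0.20 after LPS with library size only, while Cd27, farther along, had 14 and 12 counts in Cop1 KO, 3 and 3 in WT_LPS, and 5 and 3 in WT_untreated libraries. Near Tnfsf9, the LIGHT gene Tnfsf14 had 22 and 18 counts in Cop1 KO, 2 and 6 in WT_LPS, and 5 and 5 in WT_untreated libraries, and Cd70 had 6 counts over the WT_LPS pair and 0 elsewhere.

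Of the 13 other ligand genes, 8 were tested. In Cop1 KO against WT_untreated microglia 4 were higher and 1 lower, where 28.1% and 30.3% of all genes tested were. Of these, Tnfsf8 had 15 against 3 counts over the pairs, and Tnfsf18, the 1 lower, had 2 against 19. Without genes of 3 counts or fewer in a group, 3 of 5 were higher and 0 lower in the knockout. Among those 5, library size only gave 2 higher and 1 lower, and microglia markers held equal gave 2 higher and 2 lower. After LPS 5 were higher and 2 lower, where 30.2% and 43.4% of all genes were. Lta and Tnfsf8, with 2 and 3 counts over the WT_untreated pair, entered the test through their WT_LPS reads. Without them 3 of 6 were higher and 2 lower after LPS, and with library size only 2 were higher and 2 lower. Tnfsf15, the TL1A gene, showed the steepest rise of these after LPS. It had 2.61 and 2.16 CPM in Cop1 KO, 374 and 401 CPM in WT_LPS, and 0.317 and 0.559 CPM in WT_untreated libraries. Its log2 fold change was 2.42 in the knockout (SE 0.33) and 9.76 after LPS (SE 0.30). Tnfsf12 and Tnfsf13 fell after LPS, by -1.68 (SE 0.06) and -1.30 (SE 0.11), and had 0.06 (edgeR adjusted p = 0.27) and 0.26 (edgeR adjusted p = 0.0041) in the knockout. With microglia markers held equal, Tnfsf13 turned to -0.27 and Tnfsf12 had -0.47 in the knockout. They share exons with the read-through gene Tnfsfm13 over 48.3% and 60.0% of their exonic bases, so their counts may be split. Cd40lg had 0 counts in every library.

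Of the 25 other receptor genes, 21 were tested, with 6 higher and 7 lower in the knockout (median log2 fold change -0.18). Those counts lay near the shares over all genes tested, 28.1% higher and 30.3% lower (median -0.01). After LPS 8 were higher and 8 lower (median -0.11), beside 30.2% and 43.4% of all genes (median -0.18). With the authors' scaling the list median after LPS was 0.06, and library size only gave 5 higher and 12 lower (median -0.67). Cd40 had 3.96 and 4.24 CPM in Cop1 KO, 2720 and 2600 CPM in WT_LPS, and 2.06 and 2.31 CPM in WT_untreated libraries, a log2 fold change of 0.90 in the knockout (SE 0.15) and 10.24 after LPS (SE 0.12). Tnfrsf14, the herpesvirus entry mediator gene, had 0.69 and 2.96, and 0.16 in the knockout with microglia markers held equal (edgeR adjusted p = 0.12). Tnfrsf21 had 0.26 in the knockout (SE 0.05), but -0.27 with microglia markers held equal, and -1.59 after LPS (SE 0.06). The falls in the knockout included Tnfrsf19 at -4.32 (SE 0.44), Eda2r at -2.87 (SE 0.35), the BAFF receptor gene Tnfrsf13c at -2.72 (SE 0.78), which was named after its value was seen, and the neurotrophin receptor gene Ngfr at -1.83 (SE 0.20). These fell in the libraries in which astrocyte, neuronal and most oligodendrocyte lineage markers were low, and the part of those cells in the falls was not tested. The direction of 6 against 7 depends on scaling: with library size only, 11 receptors were lower in the knockout, and with microglia markers held equal 2 were higher and 14 lower.

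Of 8 genes that release or process TNF, 5 were higher and 1 lower in the knockout (median log2 fold change 0.40), beside 28.1% and 30.3% of all genes tested. After LPS 4 were higher and 2 lower (median 0.81), beside 30.2% and 43.4% of all genes. With library size only, 4 were higher and 4 lower after LPS (median 0.24). With microglia markers held equal, 2 were higher and 5 lower in the knockout. Rhbdf2, encoding the iRhom2 carrier that brings ADAM17 to the surface, had 141 and 134 CPM in Cop1 KO, 603 and 560 CPM in WT_LPS, and 70.6 and 68.3 CPM in WT_untreated libraries. That is a log2 fold change of 0.99 in the knockout (SE 0.04, edgeR adjusted p = 5.2e-27) and 3.07 after LPS (SE 0.04, edgeR adjusted p = 6e-52). Adam17 itself had 0.43 and 1.55 (SE 0.03 each), but -0.10 in the knockout with microglia markers held equal. Furin, the convertase that activates ADAM17, had 0.65 and 1.61. Sppl2a, a protease that cuts the TNF stub left in the membrane, had 0.55 and 2.12, and 0.02 in the knockout with microglia markers held equal. Timp3, the ADAM17 inhibitor gene, was lower in the knockout, with 20.7 and 19.7 CPM in Cop1 KO and 53.6 and 50.9 CPM in WT_untreated libraries (log2 fold change -1.37, SE 0.07). After LPS it had -0.13 (edgeR adjusted p = 0.059), and 21.3% of its exonic bases overlap Syn3 on the opposite strand.

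Of 22 adaptor, kinase and ligase genes of the complex assembled on TNFR1, 14 were higher and none lower in the knockout (median log2 fold change 0.30). The shares over all genes tested were 28.1% and 30.3%. After LPS 15 were higher and 4 lower (median 0.33), beside 30.2% and 43.4% of all genes. Traf1, an adaptor that binds TNFR2, had 27 and 16 counts in Cop1 KO, 14640 and 13126 in WT_LPS, and 12 and 19 in WT_untreated libraries. Its log2 fold change after LPS was 10.39 (SE 0.24), and in the knockout, where the libraries overlapped with WT_untreated, 0.68 (SE 0.32, edgeR adjusted p = 0.07, and 0.026 to 0.68 under the other scalings). Birc3, a ubiquitin ligase that modifies RIPK1, had 0.70 and 3.46 (SE 0.06 each) in the knockout and after LPS. Rnf31, the catalytic subunit of the linear ubiquitin ligase, had 0.79 and 2.80, and the kinase gene Ikbke had 0.76 and 3.71. The knockout pattern depended on scaling: with library size only, 9 of the 22 were higher and 5 lower, and with microglia markers held equal 3 were higher and 12 lower. After LPS, library size only gave 10 higher and 12 lower.

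Genes that restrain TNF receptor signalling gave 6 higher and 1 lower of 10 in the knockout (median log2 fold change 0.43), beside 28.1% and 30.3% of all genes tested. After LPS 8 were higher and 1 lower (median 3.25), beside 30.2% and 43.4% of all genes. Nfkbia, encoding the inhibitor that holds NF-kB in the cytoplasm, had 93.7 and 97.4 CPM in Cop1 KO, 1130 and 1070 CPM in WT_LPS, and 50.2 and 52.8 CPM in WT_untreated libraries, or 0.89 in the knockout and 4.42 after LPS (SE 0.04 each). Nfkbie had 0.75 and 4.78, and Tnip1, a partner of A20, had 0.61 and 2.83, and 0.08 in the knockout with microglia markers held equal. Tnfaip3, the gene of the ubiquitin-editing enzyme A20, went the other way in the knockout. It had 67.6 and 68.5 CPM in Cop1 KO, 993 and 1010 CPM in WT_LPS, and 77.8 and 80.2 CPM in WT_untreated libraries, a log2 fold change of -0.22 in the knockout (SE 0.04, edgeR adjusted p = 1.2e-05) and 3.66 after LPS (SE 0.04). With the authors' own scaling of the libraries the knockout value was -0.09 (edgeR adjusted p = 0.071). With microglia markers held equal, 2 of the 10 genes were higher and 4 lower in the knockout.

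Of 10 genes of the death-inducing complex, 4 were higher and 2 lower in the knockout (median log2 fold change 0.12), beside 28.1% and 30.3% of all genes tested. After LPS 8 were higher and 2 lower (median 1.43), beside 30.2% and 43.4% of all genes. Daxx, a Fas-binding protein that also acts on chromatin, had 97.2 and 97.6 CPM in Cop1 KO, 784 and 746 CPM in WT_LPS, and 44.7 and 43.1 CPM in WT_untreated libraries, a log2 fold change of 1.15 in the knockout and 4.12 after LPS (SE 0.04 each). Cflar, the gene of the caspase inhibitor c-FLIP, had 0.43 and 4.05 (SE 0.04 each), and -0.10 in the knockout with microglia markers held equal. Of the necroptosis pair, Mlkl had 0.41 (SE 0.09) in the knockout and 5.04 (SE 0.07) after LPS, with -0.12 in the knockout when microglia markers were held equal. Ripk3 was lower in the knockout at -0.68 (SE 0.10) and higher after LPS at 0.48 (SE 0.09), but had -0.08 after LPS with library size only. Scaled to the microglia markers, 1 of the 10 was higher and 7 were lower in the knockout.

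Of 12 genes that regulate Tnf mRNA, 5 were higher and 2 lower in the knockout (median log2 fold change 0.01), beside 28.1% and 30.3% of all genes tested. After LPS 6 were higher and 5 lower (median 0.18), beside 30.2% and 43.4% of all genes. Zc3h12a, the gene of the mRNA-degrading enzyme Regnase, had 34.7 and 35.3 CPM in Cop1 KO, 280 and 266 CPM in WT_LPS, and 19.8 and 20.6 CPM in WT_untreated libraries, a log2 fold change of 0.79 in the knockout and 3.76 after LPS (SE 0.06 each). Mapkapk2, the kinase that stabilises Tnf mRNA, had 0.30 and 2.68 (SE 0.03 each), but -0.23 in the knockout with microglia markers held equal. Zfp36, the gene of tristetraprolin, a decay factor that binds AU-rich repeats of the kind printed above, had 0.23 and 1.65 (SE 0.03 each), but -0.30 in the knockout with those markers held equal. Its relative Zfp36l2 was higher in the knockout and lower after LPS: it had 343 and 330 CPM in Cop1 KO, 30.1 and 31.4 CPM in WT_LPS, and 227 and 228 CPM in WT_untreated libraries, or 0.56 (SE 0.03) and -2.89 (SE 0.05), and 0.03 in the knockout with microglia markers held equal. Zfp36l1 also split, at 0.50 (SE 0.06, and -0.03 with microglia markers held equal) and -1.40 (SE 0.08), although 55.9% of its exonic bases overlap Gm26669 on the opposite strand. With library size only, 7 of the 12 were lower in the knockout and 8 after LPS, and with microglia markers held equal 1 was higher and 9 were lower in the knockout.

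**Figure D5:**
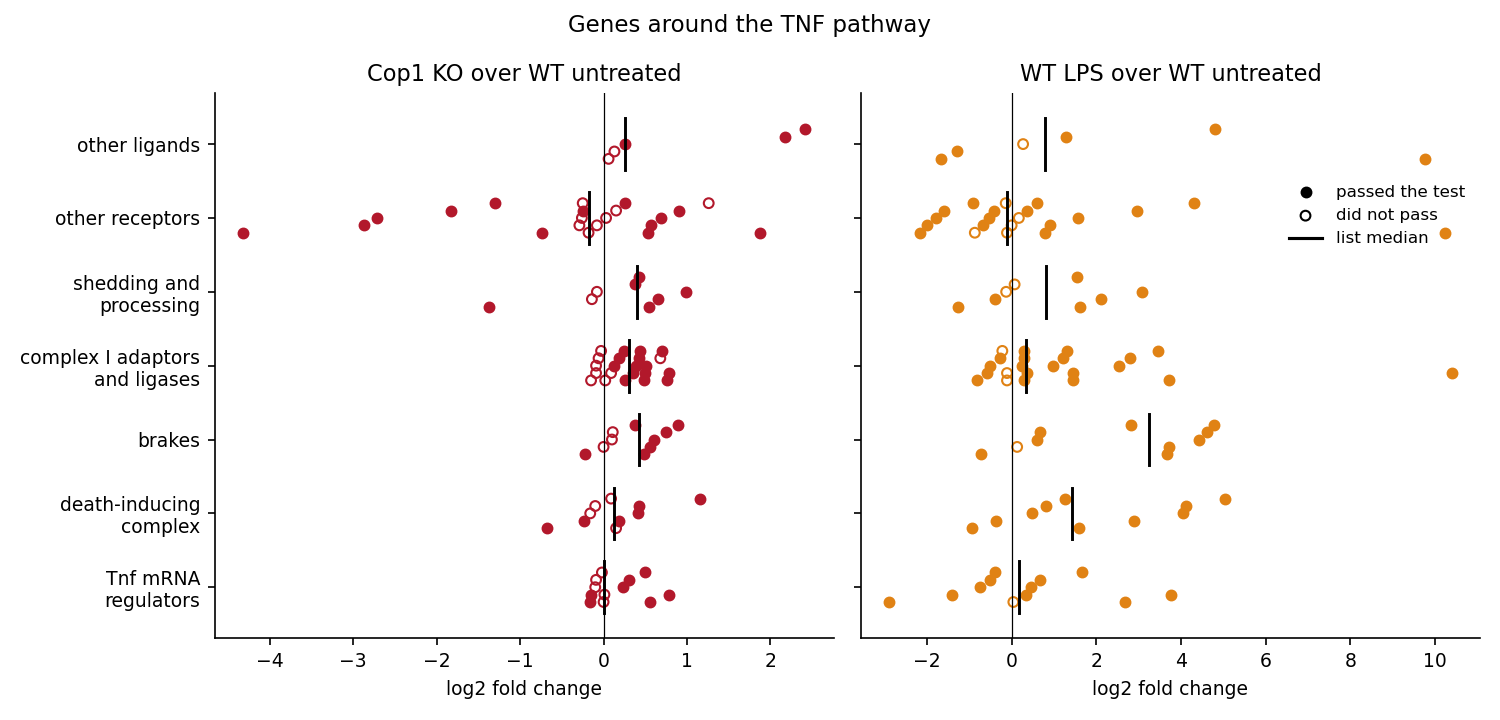
Log2 fold change of every gene of the 7 lists for which a fold could be computed, Cop1 KO over WT_untreated on the left and WT_LPS over WT_untreated on the right; filled points passed the test, and bars are medians of the points shown. The axes differ: knockout values lie between -4.32 and 2.42, and LPS values reach 10.39 for Traf1.

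The genes whose pair of changes lay nearest to each of these genes were named from 10385 genes with at least 5 CPM on average, by the distance between their log2 fold changes in the knockout and after LPS. Nearest to Tnf were Dnase1l3, Calhm6 and Trim30c, at distances of 0.32, 0.38 and 0.46, farther than for any other gene here. Nearest to Tnfsf10 were Socs1, a cytokine signalling inhibitor, Olfr56 and the guanylate-binding protein gene Gbp7, at 0.14 to 0.21, and 11.3% of Gbp7 exonic bases overlap another gene on the same strand. Nearest to Fas were Nfkb2, Casp4 and Nod2, at 0.02 to 0.08, and 18.1% of Nfkb2 exonic bases overlap genes on the opposite strand. Tnfsf9 lay closest to Psmb8, Adar and Rnf31, of which Psmb8 and Adar overlap other genes on the opposite strand over 14.7% and 16.8% of their exonic bases. Tnfsf13b lay closest to Zfp503, Fbxl4 and Acrbp, and 29.8% of Acrbp exonic bases overlap genes on either strand. Tnfrsf1a lay closest to Rrbp1, Calcrl and Agtrap, and Tnfrsf1b to Whamm, Psme1 and Cd47. Both changes share the WT_untreated libraries, so these are descriptions of the 6 libraries.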

How the data were processed

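RNA of 6 libraries was read single-end after preparation with a TruSeq RNA kit, per the labels' protocols; that kit does not keep the strand. The submitters' processing notes name the aligner GSNAP and the genome GRCm38, with no version or gene annotation. Per the file headers, the deposited count is the number of reads that the authors aligned to 1 place in a gene. The deposited RPKM values carry a size factor of the authors, also per the file headers, and how it was found is not stated there. Of 36528 Entrez identifiers, 31049 matched a RefSeq symbol.

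Counts were filtered (filterByExpr by group), scaled with TMM and fitted over all 6 libraries with edgeR 4.0.16 in R 4.3.3 (quasi-likelihood, 3 residual degrees of freedom). The Benjamini-Hochberg adjustment ran over all 15585 genes, with calls below 0.05. CPM are counts divided by the TMM-scaled library size. Fold changes of genes with 3 counts or fewer in a group are given as bounds or ratios with 95% counting intervals. Normalised RPKM served to set genes side by side. The fit was also run on simulated counts in which few genes changed, so that run does not bear on the choice of scaling. Genes named from a pathway list come from the up to 4 with the smallest p in each comparison, apart from Tnfrsf13c, along with the neighbours of the 8 genes within 1 Mb and the 3 genes of nearest pattern. The genes and lists were chosen with earlier results of these data known. Alternatives used DESeq2 1.42.0, limma 3.58.1 on log2(normalised RPKM + 1) or + 0.1, other scalings and filters, the 2 groups alone, and each library left out.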

Additional observations from a re-analysis of the deposited data

How the results depend on the processing

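Of the values recomputed under the alternatives (counts of genes called, the fold changes of the 7 measurable genes and the call of Tnfsf4), 396 kept their direction and side of the threshold. The exceptions arose in Cop1 KO against WT_untreated with the 10 microglia markers held equal: Tnfrsf1a turned to -0.15 (edgeR adjusted p = 0.0027) and Fas, at 0.24, no longer passed (edgeR adjusted p = 0.12). That scaling and the authors' size factors were added after seeing the data; the first was not run for LPS, which changes those markers. Leaving out 1 library at a time gave 0.97 to 1.01 for Tnf, 0.74 to 1.02 for Tnfsf9, 0.94 to 1.14 for Tnfsf10 and 0.66 to 0.90 for Fas in the knockout. A pseudocount of 1 lowered Tnfsf10 to 0.36 in the knockout and Tnfsf13b to -0.36 after LPS.

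Scaling set the balance of all calls. In Cop1 KO against WT_untreated libraries 48.1% of called genes were higher under TMM, 58.4% under median-of-ratios factors, 62.9% under the authors' scaling, 24.4% with library size only and 5.94% with the microglia markers held equal. In WT_LPS against WT_untreated libraries the shares were 41.1%, 49.6%, 50.9% and 19.9% under the first 4. In Cop1 KO against WT_LPS libraries the share was 50.2% under TMM and 64.5% with library size only. Over all genes, the median log2 change moved to 0.12 under the authors' scaling and -0.20 with library size only in the knockout, and to -0.74 with library size only after LPS. Of the counts of genes called higher or lower in the lists, recomputed under other scalings and filters, 11 grew and 9 shrank by more than 1.5 times.

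No paired analysis was possible because the labels give no replicate numbers or other link between libraries of different groups. Depth limits Tnfsf4 in untreated cells, where 0 counts do not show absence. With 2 libraries a group, no library was tested as an outlier.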
